A study of Arabidopsis thaliana with 12 samples.

Results

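The 36 genes described here are those of glucosinolate synthesis and regulation in Arabidopsis thaliana, out of 32833 genes in the count table. They were listed by gene identifier and pathway role, with no expression threshold. The group was selected on knowledge of the shade values of IMD1 and MYB28, which were low in shade, so the shade values below, counts past the test's threshold included, are a description from which nothing is read. All 36 identifiers were found in the table and in the TAIR10.1 annotation. By role, 22 belong to the aliphatic branch, 7 to the indolic branch and 7 serve both branches or move the products. Whole seedlings of the line bbx28-5 and of the accession Col-0 were kept in simulated shade or in white light, giving 4 groups of 3 biological replicates: bbx28-5 in shade, bbx28-5 in white light, Col-0 in shade and Col-0 in white light. BBX28 is a B-box zinc finger protein, and the comparisons ask which transcripts differ with shade, with the bbx28-5 genotype and with both together. All seedlings were raised on agar and water at 22 degrees Celsius under a photoperiod of 10 h, with 14 h of night, over 2 days, and the light treatment lasted 4 h on day 3. Simulated shade had a photosynthetically active radiation of 20 and a red to far-red ratio of 0.145, and white light had 90 and 1.1, with radiation in µmol per square metre per second. Shade was set by a green filter over the same lamps, so blue light was lower in it as well, at 1.3 against 8.1. A single line stands for the genotype, and the labels do not say what the bbx28-5 mutation is.

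Glucosinolates are sulphur-rich defence compounds of the cabbage order. Aliphatic glucosinolates start from methionine, whose side chain is lengthened in a cycle that resembles leucine synthesis, and indolic glucosinolates start from tryptophan. In both branches CYP79 enzymes make an aldoxime, CYP83 enzymes oxidise it, sulphur is brought in from glutathione, and a glucose and a sulphate are added. MYB28, MYB29 and MYB76 activate the aliphatic genes, and MYB34, MYB51 and MYB122 the indolic ones. Myrosinases break the products down when tissue is damaged.

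Total counts per library were 10.61 to 14.3 M, and the 36 genes together took 0.0266% to 0.194% of them. Levels are in CPM, the usual library-size-normalised read count, here of the TMM-scaled library. A floor of 3 counts equals 0.2 to 0.346 CPM per library. Such floors, and the intervals below, hold for counting error alone. Of the 36 genes, 34 passed the filter on low counts. MYB76 (AT5G07700) had 4 counts in all in Col-0 in white light, 2 in bbx28-5 in white light and 0 in both shade groups. GSTF11 (AT3G03190), a glutathione transferase, was at 0 in all 12 libraries. Its exons lie over their whole length (100%) opposite those of AT3G03200, and how strand was treated in counting is not stated in the labels. BCAT4, CYP79F1, FMO GS-OX1 and MYB122 passed only through Col-0 in white light. CYP79F1 and CYP79F2 share 91.8% of their aligned coding bases with an identical stretch of 100 bases, so the split of reads between them is uncertain. Replicate 2 of bbx28-5 in shade stood apart, with 1493 genes at least 2-fold from the other libraries of its group, against 21 to 301 in the remaining libraries.

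Gene positions come from the TAIR10.1 annotation, and several members lie side by side. CYP79F2 lies at chr1:5605044-5607498 and CYP79F1 at chr1:5608682-5612064. MAM1 is at chr5:7703041-7706973 and MAM3, which the annotation lists as IMS2, at chr5:7718118-7721866. The sulphotransferase genes SOT18 (chr1:27862814-27864193, plus strand) and SOT16 (chr1:27864345-27865694, minus strand) are neighbours near MYB122 (chr1:27855578-27857598). APK2, listed there as AKN2, is at chr4:18519599-18521605, close to CYP79B2 at chr4:18525042-18527602.

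Upstream sequence was searched because most members moved together. Windows were the 250 bases before each annotated gene start, read from the RefSeq TAIR10.1 genome, and motifs were matched on both strands. The letters ACCAAC, an element bound by MYB proteins, stood in 10 of 36 member windows (27.8%), against 11.5% of 27443 protein-coding windows. By branch these were 6 of 22 aliphatic, 3 of 7 indolic and 1 of 7 shared windows. The G-box CACGTG, bound by bHLH and bZIP proteins, was in 3 of 36 member windows (8.33%), against 6.49% of protein-coding windows. The members with it were IIL1, CYP83A1 and SUR1. The element CACATG, bound by some phytochrome-interacting factors, was in 2 of 36 member windows (5.56%), against 11.1% of protein-coding windows. No window printed here holds more than 1 kind of these motifs, no matches overlap in them, and a match describes letters only. Below, capitals mark ACCAAC or its reverse complement in the first 4 windows and CACGTG in the last 2, each written 5′ to 3′ on the gene's strand. CYP79B2 and CYP79B3 are shown for a stretch they share, SOT16 and SOT17 for repeated matches, and CYP83A1 and SUR1 for the G-box.
CYP79B2 chr4:18524792-18525041, plus strand: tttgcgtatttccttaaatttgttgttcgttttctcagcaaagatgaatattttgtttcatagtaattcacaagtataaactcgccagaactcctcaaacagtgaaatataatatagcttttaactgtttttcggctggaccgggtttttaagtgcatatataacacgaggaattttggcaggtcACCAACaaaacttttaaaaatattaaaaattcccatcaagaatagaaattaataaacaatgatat
CYP79B3 chr2:9488163-9488412, plus strand: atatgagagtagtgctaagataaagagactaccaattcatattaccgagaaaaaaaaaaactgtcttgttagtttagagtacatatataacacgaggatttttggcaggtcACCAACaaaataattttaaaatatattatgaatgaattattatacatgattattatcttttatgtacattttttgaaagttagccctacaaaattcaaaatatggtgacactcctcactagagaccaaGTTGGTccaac
SOT16 chr1:27865695-27865944, minus strand: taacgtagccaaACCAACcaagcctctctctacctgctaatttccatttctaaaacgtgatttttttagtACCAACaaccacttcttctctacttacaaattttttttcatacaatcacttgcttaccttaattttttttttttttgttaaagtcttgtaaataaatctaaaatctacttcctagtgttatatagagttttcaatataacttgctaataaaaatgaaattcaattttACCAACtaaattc
SOT17 chr1:6398281-6398530, plus strand: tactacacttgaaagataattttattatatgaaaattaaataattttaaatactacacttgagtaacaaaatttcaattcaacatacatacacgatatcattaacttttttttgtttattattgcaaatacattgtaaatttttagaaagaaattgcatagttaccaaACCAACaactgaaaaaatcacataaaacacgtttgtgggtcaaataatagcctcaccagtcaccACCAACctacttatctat
CYP83A1 chr4:7992430-7992679, minus strand: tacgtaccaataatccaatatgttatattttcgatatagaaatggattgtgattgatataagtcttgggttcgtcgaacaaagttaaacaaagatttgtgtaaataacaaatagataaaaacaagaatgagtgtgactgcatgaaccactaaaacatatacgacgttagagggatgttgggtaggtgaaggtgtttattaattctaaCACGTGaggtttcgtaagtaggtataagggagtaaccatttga
SUR1 chr2:8880441-8880690, minus strand: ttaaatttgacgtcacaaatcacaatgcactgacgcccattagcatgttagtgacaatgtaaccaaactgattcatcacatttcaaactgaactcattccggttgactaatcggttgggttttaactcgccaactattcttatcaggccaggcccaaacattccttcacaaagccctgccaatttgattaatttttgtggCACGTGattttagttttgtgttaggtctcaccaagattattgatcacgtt
The stretch shared by the CYP79B2 and CYP79B3 windows is 22 bases long and holds the motif.
Shared stretch of CYP79B2 on chromosome 4 and CYP79B3 on chromosome 2: ttttggcaggtcACCAACaaaa
It begins 77 bases before the start of CYP79B2 and 151 bases before that of CYP79B3. The window of SOT16 holds the motif 3 times, and those of SOT17, CYP79B3 and UGT74B1 hold it 2 times.

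Nearly all measured members were lower in shade than in white light in both genotypes. In bbx28-5, 31 of the 34 tested members were lower in shade and 0 higher, counted at an adjusted p under 0.05 in edgeR's quasi-likelihood test over 19711 genes, where 67.5% of all tested genes were called, 33.1% lower and 34.4% higher. In Col-0, 32 were lower and 0 higher, where 59.4% of all tested genes were called, 30.4% lower and 29.0% higher. The aliphatic members had a median log2 change of -3.94 in bbx28-5 and -5.39 in Col-0, or -3.22 in bbx28-5 and -5.20 in Col-0 with genes at 3 counts or fewer set to their bound or ratio. Indolic members had medians of -2.19 in bbx28-5 and -1.41 in Col-0, and shared members -1.61 in bbx28-5 and -1.67 in Col-0. The median over all tested genes was 0 in bbx28-5 and -0.02 in Col-0. In bbx28-5, all shaded libraries were below all white light ones in 31 tested members and in 34.3% of all tested genes. In Col-0 this held for 32 tested members and 36.7% of all tested genes. Without replicate 2 of shaded bbx28-5, 31 members were lower there and 1 higher, MYB51 (0.55 ± 0.15, SE). Scaling by total counts shifts the median of all genes in bbx28-5 by -0.34, so that 33.9% of its calls are higher, against 51% with the scaling used. The shade-induced genes HFR1, PIL1 and ATHB2 summed to 353 to 431 CPM in shaded bbx28-5, against 33.4 to 37.6 CPM under white light, and to 263 to 276 CPM in shaded Col-0 and 34.7 to 37.9 CPM in Col-0 in white light. Markers of cell types moved with the light too. The 7 shoot markers summed to 15500 to 22400 CPM in shaded bbx28-5 and 26700 to 27100 CPM under white light, and in Col-0 to 12600 to 15100 CPM in shade and 23200 to 27100 CPM in white light. Of these 7, 4 were lower and 1 higher in shade in bbx28-5, and 5 lower and 2 higher in Col-0. Guard and myrosin cell markers were listed together as 3 genes, FAMA, KAT1 and MYB60, so their sum does not tell these cell types apart. They summed to 29.9 to 42.6 CPM in shaded bbx28-5 against 58.4 to 62.8 CPM under white light. In Col-0 they summed to 60.9 to 63.9 CPM in shade against 59.2 to 63.8 CPM under white light. Among the 3, 2 were lower in shade in bbx28-5 and 0 in Col-0, with 0 higher in either. The 12 root markers summed to 132 to 136 CPM in shaded bbx28-5 against 112 to 130 CPM under white light, and to 170 to 222 CPM in shaded Col-0 against 217 to 255 CPM under white light. Root markers did not move as one. Of the 10 tested, 5 were lower and 3 higher in shade in bbx28-5, and 6 lower and 2 higher in Col-0. The part of these markers in the shade values was not tested. In these whole-seedling libraries, fewer cells of a type and less RNA per cell cannot be told apart.

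Among the regulators, MYB28, MYB29 and MYB34 were past the threshold for shade in both genotypes, and MYB51 and MYB122 in neither. MYB28 (AT5G61420) had 1.09, 0.462 and 0.646 CPM in shaded bbx28-5, against 35.3, 36.2 and 36.7 CPM in bbx28-5 in white light. In Col-0 its levels were 0.934, 2.23 and 1.42 CPM in shade and 40.7, 33.3 and 43.5 CPM in white light. Every shaded library was thus far below every white light library, with log2 changes of -5.60 ± 0.25 in bbx28-5 and -4.70 ± 0.21 in Col-0 (SE). MYB29 (AT5G07690) was at 0 in all shaded bbx28-5 libraries, against 1.77, 2.27 and 1.81 CPM in bbx28-5 in white light. In Col-0 it was at 0 in shade too, against 3.30, 3.76 and 4.73 CPM in white light. With 3 counts over the shaded group as the floor, MYB29 was at least 18.6-fold lower in shaded bbx28-5 and at least 54.7-fold lower in shaded Col-0.

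MYB34 (AT5G60890), an activator of indolic genes, had 12, 15.0 and 11.5 CPM in shaded bbx28-5, against 55.5, 57.6 and 62.2 CPM in bbx28-5 in white light. Col-0 libraries had 28.2, 33.7 and 36 CPM in shade and 85.7, 72.7 and 84.1 CPM in white light. The 4 groups did not overlap, and their order was bbx28-5 in shade, Col-0 in shade, bbx28-5 in white light, then Col-0 in white light as the highest. MYB51 (AT1G18570) stayed in a narrow range, with 9.14, 6.23 and 10.5 CPM in shaded bbx28-5 and 6.26, 7.12 and 6.63 CPM in bbx28-5 in white light. In Col-0, MYB51 had 7.74, 8.83 and 9.62 CPM in shade and 9.58, 9.14 and 11.1 CPM in white light. Its shade and white light libraries overlapped in both genotypes. MYB122 (AT1G74080) had 1.41, 0.577 and 0.369 CPM in shaded bbx28-5 and 0.545, 1.51 and 1.21 CPM in bbx28-5 in white light. In Col-0 the MYB122 levels were 0.934, 0.318 and 1.71 CPM in shade and 1.69, 0.998 and 1.13 CPM in white light, so all groups overlapped near the floor.

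**Figure D1:**
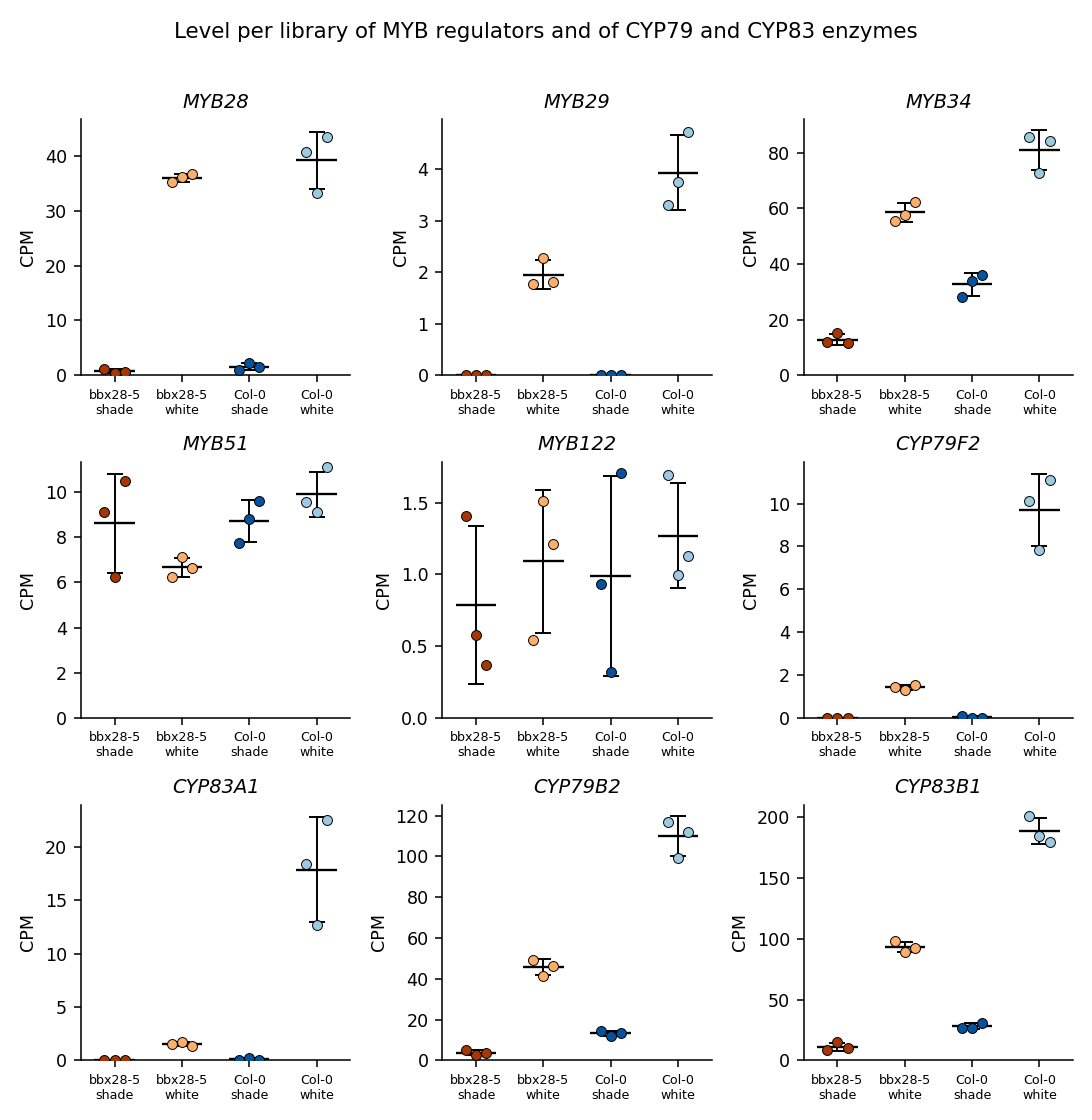
Levels in CPM (y axis) of 5 MYB regulators, 2 aliphatic enzymes (CYP79F2, CYP83A1) and 2 indolic enzymes (CYP79B2, CYP83B1) in bbx28-5 and Col-0 under simulated shade and white light; points are libraries, lines the mean and bars the SD of 3. MYB28 stayed under 3 CPM in shade, and its libraries overlapped between the genotypes in white light, as did those of MYB122. MYB29, MYB34 and MYB51 were lower in bbx28-5 than in Col-0 in white light without overlap, and CYP79F2 and CYP83A1 were far lower.

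The methionine chain elongation genes made up 9 of the aliphatic members. BCAT4 (AT3G19710), the aminotransferase that opens the cycle, was at 0 in all 3 shaded bbx28-5 libraries, against 0.408, 0.454 and 0.430 CPM in bbx28-5 in white light. Its Col-0 levels were 0, 0.0796 and 0 CPM in shade and 5.80, 2.38 and 6.06 CPM in white light. All BCAT4 libraries outside Col-0 in white light were thus under 0.5 CPM. MAM1 (AT5G23010), a methylthioalkylmalate synthase that condenses the first intermediates, had 0.218, 0.577 and 0.554 CPM in shaded bbx28-5, against 2.45, 2.05 and 1.64 CPM in bbx28-5 in white light. In Col-0, MAM1 had 0.333, 0.477 and 0.214 CPM in shade and 26.9, 18.7 and 28.2 CPM in white light. The shaded groups overlapped between genotypes, and Col-0 in white light stood far above the rest.

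MAM3 (AT5G23020), its paralog for longer chains, had 0.109, 0.346 and 0.461 CPM in shaded bbx28-5 and 3.54, 4.09 and 2.84 CPM in bbx28-5 in white light. In Col-0, MAM3 had 1.27, 1.03 and 0.427 CPM in shade and 7.55, 6.83 and 9.19 CPM in white light. IMD1 (AT5G14200), an isopropylmalate dehydrogenase of the cycle, had 0.435, 0.231 and 0 CPM in shaded bbx28-5 and 10.0, 8.94 and 8.35 CPM in bbx28-5 in white light. Both genes were lower in every shaded library than in any white light library of their genotype. IMD1 in Col-0 had 0.267, 0.398 and 0.0712 CPM in shade and 46.2, 29.5 and 50.1 CPM in white light. Its log2 change with shade was -5.38 ± 0.47 in bbx28-5 and -7.39 ± 0.36 in Col-0 (SE). BAT5 (AT4G12030), a keto acid carrier at the plastid envelope, had 0, 0.462 and 0.185 CPM in shaded bbx28-5 and 2.59, 1.51 and 2.24 CPM in bbx28-5 in white light. In Col-0 it stood at 0.467, 0.239 and 0.499 CPM in shade and 13.7, 10.3 and 14.3 CPM in white light. The BAT5 groups again separated by light in each genotype.

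IPMI1 (AT3G58990) and IPMI2 (AT2G43100) encode small subunits of isopropylmalate isomerase. IPMI1 was at 0 in the shaded bbx28-5 libraries, against 2.38, 1.82 and 2.5 CPM in bbx28-5 in white light. Col-0 had 0.267, 0.0796 and 0.0712 CPM in shade and 12.9, 8.37 and 13.0 CPM in white light. Every IPMI1 white light library lay above every shaded one. IPMI2 had 1 count in shaded bbx28-5 and 83 in bbx28-5 in white light, a ratio of 60.3-fold lower with an exact binomial 95% interval of 10.5 to 2410. In Col-0 the IPMI2 counts were 3 in shade and 607 in white light, a ratio of 196-fold lower (66.9 to 955). BCAT3 (AT3G49680) and IIL1 (AT4G13430) had the smallest shade changes of this step in both genotypes. They are genes of wider use, in branched-chain amino acid metabolism and, as the large isomerase subunit, in leucine synthesis. BCAT3 averaged 49.0 ± 2.11 CPM in shaded bbx28-5 and 85.5 ± 2.12 CPM in bbx28-5 in white light. In Col-0 the means were 48.9 ± 3.06 CPM in shaded Col-0 and 86.9 ± 3.86 CPM in Col-0 in white light (SD, n = 3 each). IIL1 averaged 130 ± 22.2 CPM in shaded bbx28-5 and 166 ± 5.26 CPM in bbx28-5 in white light. The Col-0 averages were 113 ± 6.97 CPM in shaded Col-0 and 178 ± 7.61 CPM in Col-0 in white light (SD, n = 3 each). Its log2 change was -0.35 ± 0.11 in bbx28-5 and -0.66 ± 0.11 in Col-0 (SE). That of BCAT3 was -0.80 ± 0.087 in bbx28-5 and -0.83 ± 0.086 in Col-0 (SE).

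Among the core enzymes of the aliphatic branch, CYP79F1 (AT1G16410), CYP79F2 (AT1G16400) and CYP83A1 (AT4G13770) were at or near 0 in shade. CYP79F1, which makes aldoximes from elongated methionine, was at 0 in all shaded libraries and had 0.136, 0 and 0 CPM in bbx28-5 in white light. Col-0 in white light held 3.51, 1.92 and 3.66 CPM. CYP79F1 was thus at least 42.7-fold lower in shaded Col-0 than in Col-0 in white light. CYP79F2, its close paralog for long chains, was at 0 in shaded bbx28-5, against 1.43, 1.29 and 1.55 CPM in bbx28-5 in white light. In Col-0, CYP79F2 had 0.0667, 0 and 0 CPM in shade and 7.83 CPM at the lowest and 11.1 CPM at the highest in white light. Shade left CYP79F2 at or near 0 in both genotypes. CYP83A1, the next enzyme, was at 0 in shaded bbx28-5, against 1.5, 1.74 and 1.38 CPM in bbx28-5 in white light. In Col-0 it had 0, 0.239 and 0 CPM in shade and 18.4, 12.7 and 22.6 CPM in white light. CYP83A1 was at least 14.8-fold lower in shade in bbx28-5, and in Col-0 its 3 shaded counts gave a ratio of 252-fold lower (exact binomial 95% interval 85.9 to 1220).

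GSTU20 (AT1G78370), a glutathione transferase assigned to this branch, was better detected, with 6.53, 6.69 and 5.35 CPM in shaded bbx28-5 and 44.9, 46.6 and 53.5 CPM in bbx28-5 in white light. Col-0 libraries had 2.40, 3.58 and 2.99 CPM in shade and 97.6, 71.0 and 114 CPM in white light. The genotypes thus stood in opposite order in the lights, with bbx28-5 above Col-0 in shade and below it in white light. SOT17 (AT1G18590), a sulphotransferase of aliphatic desulphoglucosinolates, had 0.870, 0.693 and 0.923 CPM in shaded bbx28-5 and 7.69, 7.12 and 7.66 CPM in bbx28-5 in white light. In Col-0 the SOT17 levels were 1.87, 1.51 and 1.64 CPM in shade and 25.9, 17.4 and 24 CPM in white light. SOT18 (AT1G74090), of the same family, had 6.53, 6.93 and 4.52 CPM in shaded bbx28-5 and 11.2, 11.3 and 13.1 CPM in bbx28-5 in white light. Both sulphotransferases were lower in every shaded library than in white light. In Col-0, SOT18 had 7.60, 7.80 and 5.98 CPM in shade and 23.5, 19.3 and 27.4 CPM in white light. AT2G31790, annotated as a UDP-glycosyltransferase, averaged 10.7 ± 0.845 CPM in shaded bbx28-5 and 37.0 ± 3.28 CPM in bbx28-5 in white light. Col-0 means were 12.8 ± 1.17 CPM in shaded Col-0 and 52.0 ± 4.43 CPM in Col-0 in white light (SD, n = 3 each). The side-chain oxygenase FMO GS-OX1 (AT1G65860) had 0 counts in shaded bbx28-5 and 12 in bbx28-5 in white light, and FMO GS-OX3 (AT1G62560) had 1 count in shade and 38 in white light in the same genotype. In Col-0 these oxygenases had 3 counts each in shade, against 98 for FMO GS-OX1 and 196 for FMO GS-OX3 in white light. Neither oxygenase was above 3 counts in a shaded group.

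The indolic enzymes kept measurable levels in shade. CYP79B2 (AT4G39950), which turns tryptophan into indole-3-acetaldoxime, had 5.11, 2.42 and 3.69 CPM in shaded bbx28-5 and 49.4, 41.4 and 46.1 CPM in bbx28-5 in white light. Its Col-0 levels were 14.4, 12 and 13.5 CPM in shade and 117, 99.0 and 112 CPM in white light. CYP79B2 thus fell into 4 separate levels with no overlap. Its paralog CYP79B3 (AT2G22330) had 9.14, 5.66 and 7.66 CPM in shaded bbx28-5 and 55.8, 46.4 and 56.2 CPM in bbx28-5 in white light. In Col-0, CYP79B3 had 26.1, 28 and 29.8 CPM in shade and 106, 101 and 104 CPM in white light. The order of the 4 groups was the one seen for MYB34. CYP83B1 (AT4G31500), the indolic CYP83, had 8.81, 15.0 and 9.78 CPM in shaded bbx28-5 and 98.2, 89.4 and 92.7 CPM in bbx28-5 in white light. In Col-0 the CYP83B1 levels were 27.0, 26.3 and 31.0 CPM in shade and 201, 185 and 180 CPM in white light. SOT16 (AT1G74100), the sulphotransferase that prefers indolic substrates, had 23.5, 17.2 and 27.8 CPM in shaded bbx28-5 and 55.6, 50.4 and 53.8 CPM in bbx28-5 in white light. All 4 groups were again apart, since SOT16 in Col-0 had 37.9, 41.9 and 36.3 CPM in shade and 105, 99.4 and 103 CPM in white light.

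Genes that serve both branches were lower in shade as well. APK1 (AT2G14750), listed as APK, and APK2 (AT4G39940) make the active sulphate donor. APK1 had 17.2, 23.7 and 21.3 CPM in shaded bbx28-5 and 33.0, 32.9 and 32.3 CPM in bbx28-5 in white light. In Col-0 it stood at 28.1, 24.2 and 26 CPM in shade and 72.1, 64.6 and 70.4 CPM in white light. APK1 in bbx28-5 in white light was thus well under its Col-0 level there. APK2 had 1.63, 2.19 and 1.57 CPM in shaded bbx28-5 and 22.9, 20.1 and 18.7 CPM in bbx28-5 in white light. In Col-0, APK2 had 5.54, 4.06 and 5.20 CPM in shade and 61.2, 51.2 and 57.9 CPM in white light. The 4 APK2 groups did not overlap. GGP1 (AT4G30530), a gamma-glutamyl peptidase of the core pathway, averaged 18.3 ± 4.19 CPM in shaded bbx28-5 and 60.7 ± 3.35 CPM in bbx28-5 in white light. In Col-0 the means were 33.3 ± 5.57 CPM in shaded Col-0 and 129 ± 3.83 CPM in Col-0 in white light (SD, n = 3 each). SUR1 (AT2G20610), the C-S lyase, averaged 13.7 ± 0.483 CPM in shaded bbx28-5 and 36.2 ± 1.9 CPM in bbx28-5 in white light. The Col-0 averages were 19.9 ± 2.49 CPM in shaded Col-0 and 61.9 ± 5.51 CPM in Col-0 in white light (SD, n = 3 each). UGT74B1 (AT1G24100), a glucosyltransferase, averaged 11.4 ± 3.56 CPM in shaded bbx28-5 and 31.3 ± 3.17 CPM in bbx28-5 in white light. Col-0 means were 21.5 ± 0.0732 CPM in shaded Col-0 and 59.0 ± 3.57 CPM in Col-0 in white light (SD, n = 3 each). All 3 were lower in each shaded library than in any white light library of the same genotype.

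The transporter GTR1 (AT3G47960), which loads glucosinolates into the phloem together with GTR2 (AT5G62680), had 9.57, 7.16 and 8.49 CPM in shaded bbx28-5 and 41.8, 45.0 and 38.1 CPM in bbx28-5 in white light. In Col-0, GTR1 had 11.9, 11.9 and 13.0 CPM in shade and 42.8, 41.9 and 42.3 CPM in white light. Its white light levels overlapped between the genotypes, while its shaded levels did not. GTR2 had 10.8, 15.6 and 14.7 CPM in shaded bbx28-5 and 43.6, 42.4 and 39.4 CPM in bbx28-5 in white light. Col-0 had 19.3, 19.9 and 21.1 CPM in shade and 66.9, 63.0 and 61.4 CPM in white light. GTR2 was lower in bbx28-5 than in Col-0 in every library of each light.

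Per kilobase of exon, the highest levels in Col-0 in white light were 106 ± 3.15 CPM per kb for GGP1, 99.3 ± 5.74 for CYP83B1 and 86.8 ± 3.70 for IIL1 (SD, n = 3). The SD ranges of GGP1 and CYP83B1 overlap. The lowest tested members there were MYB122, at 0.814 ± 0.234, and CYP79F1, at 0.926 ± 0.295 CPM per kb (SD, n = 3). In shaded bbx28-5 the order was led by IIL1 at 63.1 ± 10.8 and BCAT3 at 27.9 ± 1.21 CPM per kb, followed by SOT16 at 16.9 ± 3.94 and GGP1 at 15.0 ± 3.45 (SD, n = 3).

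**Figure D2:**
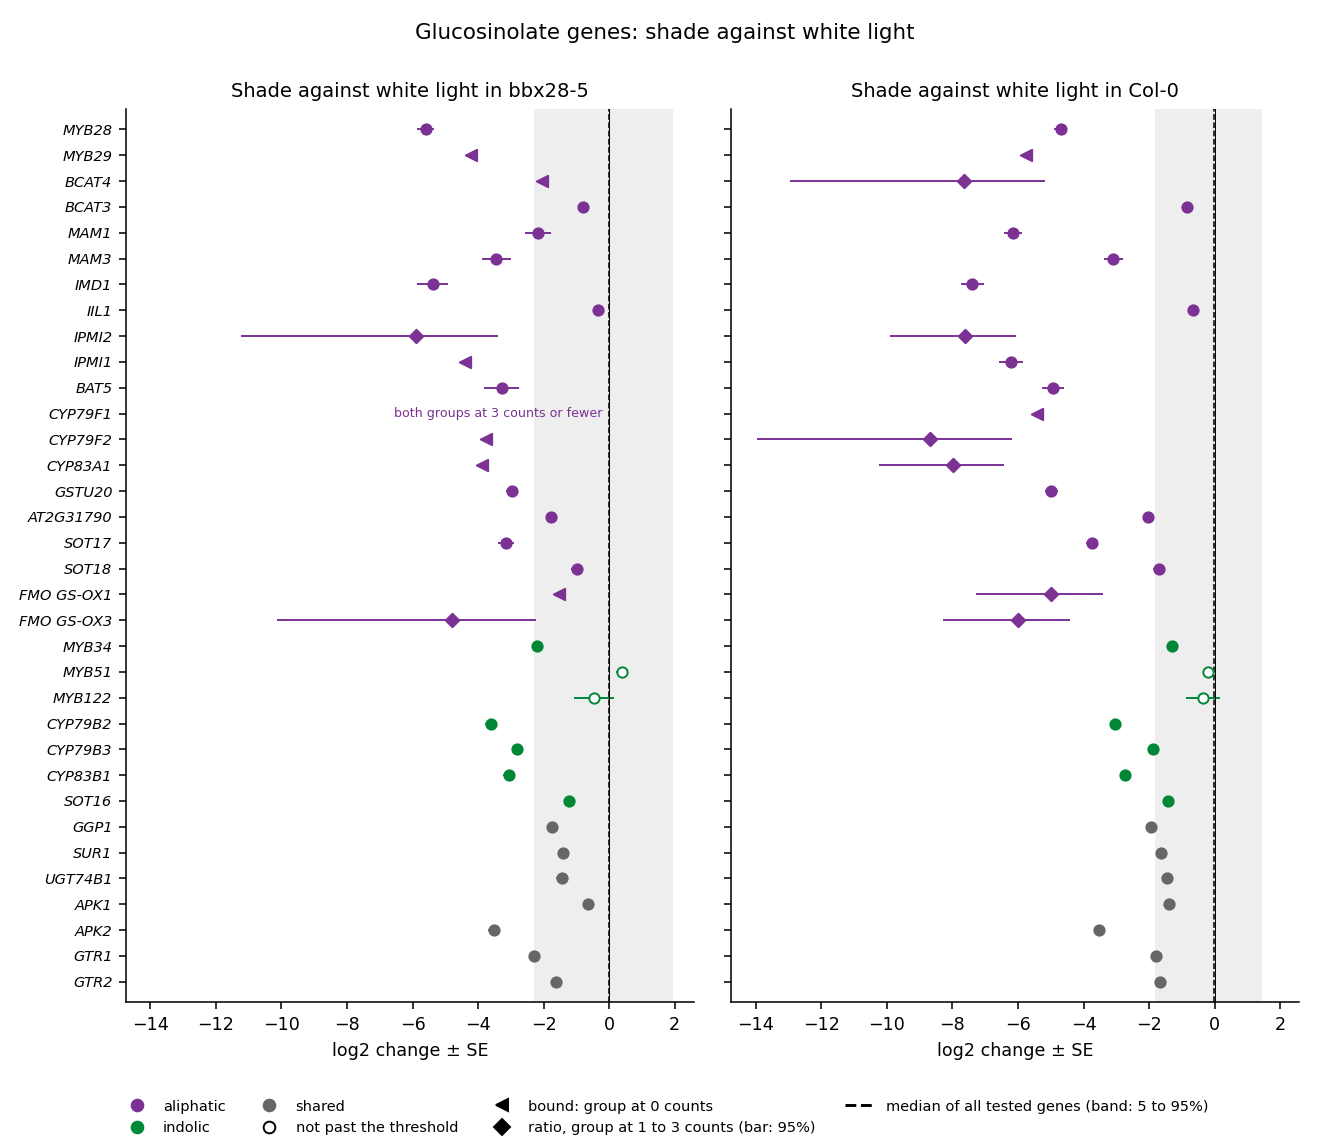
Log2 change of shade against white light (x axis) for the 34 tested members in bbx28-5 (left) and Col-0 (right); bars are SE, triangles mark bounds for groups at 0 counts, diamonds ratios with exact 95% intervals, and the band spans the 5 to 95% range of all tested genes. The aliphatic members had medians of -3.94 in bbx28-5 and -5.39 in Col-0, and MYB51 and MYB122 lie beside 0.

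In white light, bbx28-5 had lower levels than Col-0 for most members, among them enzymes of every step. The regulators MYB29, MYB34 and MYB51 were lower too, with calls that depended on single libraries, while MYB28 and MYB122 did not pass the test. Of the 34 tested members 29 were lower in bbx28-5 and 0 higher in edgeR's quasi-likelihood test, where 9.88% of all tested genes were called, 6.08% lower and 3.80% higher. Groups did not overlap, with bbx28-5 below Col-0, in 29 members and in 20.2% of all tested genes. Among them BCAT4, CYP79F1 and FMO GS-OX1 passed the filter only through the Col-0 white light libraries in which they are high. Such a filter favours a difference, so their calls are no support for one and no p is given for them. Leaving out these and MYB122, a choice made after seeing the data, 26 of 30 members were lower, and the aliphatic count was 14 of 17 with a median log2 change of -1.58. Those libraries also enter the shade contrast of Col-0, so the comparisons are not separate. Without replicate 2 of shaded bbx28-5, 29 members were still lower and 0 higher, against 12.7% and 11.2% of all tested genes. Medians of the log2 change were -2.22 over 20 aliphatic, -0.94 over 7 indolic and -0.92 over 7 shared members, against 0 over all tested genes. The counts were 17 of 20 aliphatic, 6 of 7 indolic and 6 of 7 shared members lower.

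Of the aliphatic regulators, MYB28 had a log2 change of -0.12 ± 0.15 (SE, edgeR adjusted p = 0.716), and its libraries overlapped. MYB29 was lower by a log2 change of -1.01 ± 0.25 (SE, edgeR adjusted p = 0.0296) and its libraries did not overlap, but the call was lost when any 1 of the 3 bbx28-5 or 3 Col-0 white light libraries was left out (highest edgeR adjusted p = 0.113). CYP79F1 had 2 counts in bbx28-5 and 132 in Col-0, a ratio of 60.8-fold lower with an exact binomial 95% interval of 16.5 to 507. MAM1 had a log2 change of -3.57 ± 0.21 (SE, edgeR adjusted p = 4.73e-07). CYP83A1 had -3.53 ± 0.30 (SE, edgeR adjusted p = 2.27e-05), and BCAT4 -3.44 ± 0.44 (SE). The remaining chain elongation genes that passed were BAT5 (-2.59), IPMI2 (-2.73), IPMI1 (-2.36), IMD1 (-2.20) and MAM3 (-1.17), and CYP79F2 had -2.77. BCAT3 and IIL1, both genes of wider use, had -0.02 ± 0.085 and -0.11 ± 0.11 (SE) and did not pass. Core and side-chain members gave -2.87 for FMO GS-OX1, -2.23 for FMO GS-OX3, -1.58 for SOT17, -0.98 for SOT18, -0.97 for GSTU20 and -0.49 for AT2G31790. FMO GS-OX1 is set aside, since it entered only through Col-0 in white light and the filter favoured a difference. Each of the others passed with groups that did not overlap. AT2G31790 lost its call without Col-0 replicate 1 in white light (adjusted p = 0.0502, edgeR).

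The indolic enzymes were lower in bbx28-5 with log2 changes near -1. CYP79B2 had -1.26 ± 0.14 (SE, edgeR adjusted p = 7.24e-05) and CYP83B1 -1.01 ± 0.14 (edgeR adjusted p = 0.000382). CYP79B3 had -0.98 ± 0.12 (edgeR adjusted p = 0.000203) and SOT16 -0.94 ± 0.13 (edgeR adjusted p = 0.000405). MYB34 was lower by -0.47 ± 0.12 (edgeR adjusted p = 0.0204) and MYB51 by -0.57 ± 0.17 (edgeR adjusted p = 0.0468). The MYB34 call was lost without replicate 1 or 2 of bbx28-5 or replicate 1 or 3 of Col-0 in white light (highest edgeR adjusted p = 0.095). That of MYB51 was lost without any 1 white light library, any 1 shaded Col-0 library or replicate 1 of shaded bbx28-5 (highest edgeR adjusted p = 0.158). In edgeR it was also lost under total-count scaling (adjusted p = 0.0606), with DESeq2's size factors (0.0595) and with a replicate block (0.0548). MYB122 had -0.25 ± 0.51 and did not pass. Shared members were lower too, with -1.46 ± 0.12 for APK2, -1.08 ± 0.11 for APK1, -1.08 ± 0.14 for GGP1, -0.92 ± 0.15 for UGT74B1, -0.77 ± 0.10 for SUR1 and -0.61 ± 0.11 for GTR2 (SE). GTR1 had -0.02 ± 0.099 (edgeR adjusted p = 0.938).

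Replicate 2 of Col-0 in white light was the lowest library of its group for 19 of the 20 tested aliphatic members, 6 of 7 indolic and 6 of 7 shared members. Leaving out each library in turn kept the aliphatic median between -2.40 and -2.02 and the number of lower members between 25 and 29. Markers of other cell types also differed between the genotypes. The summed level of 12 root markers was 112 to 130 CPM in bbx28-5 and 217 to 255 CPM in Col-0 in white light, and 6 of the 10 tested were lower in bbx28-5. None of the 12 was at 0 in either white light group. The summed level of 5 seed storage markers was 157 to 288 CPM in bbx28-5 and 46.5 to 127 CPM in Col-0 in white light, and 3 of 5 were higher in bbx28-5. The part of root and seed markers in the result was not tested. The 3 guard and myrosin cell markers summed to 58.4 to 62.8 CPM in bbx28-5 and 59.2 to 63.8 CPM in Col-0 in white light. Markers of the shoot, 7 genes, summed to 26700 to 27100 CPM in bbx28-5 and 23200 to 27100 CPM in Col-0 there.

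**Figure D3:**
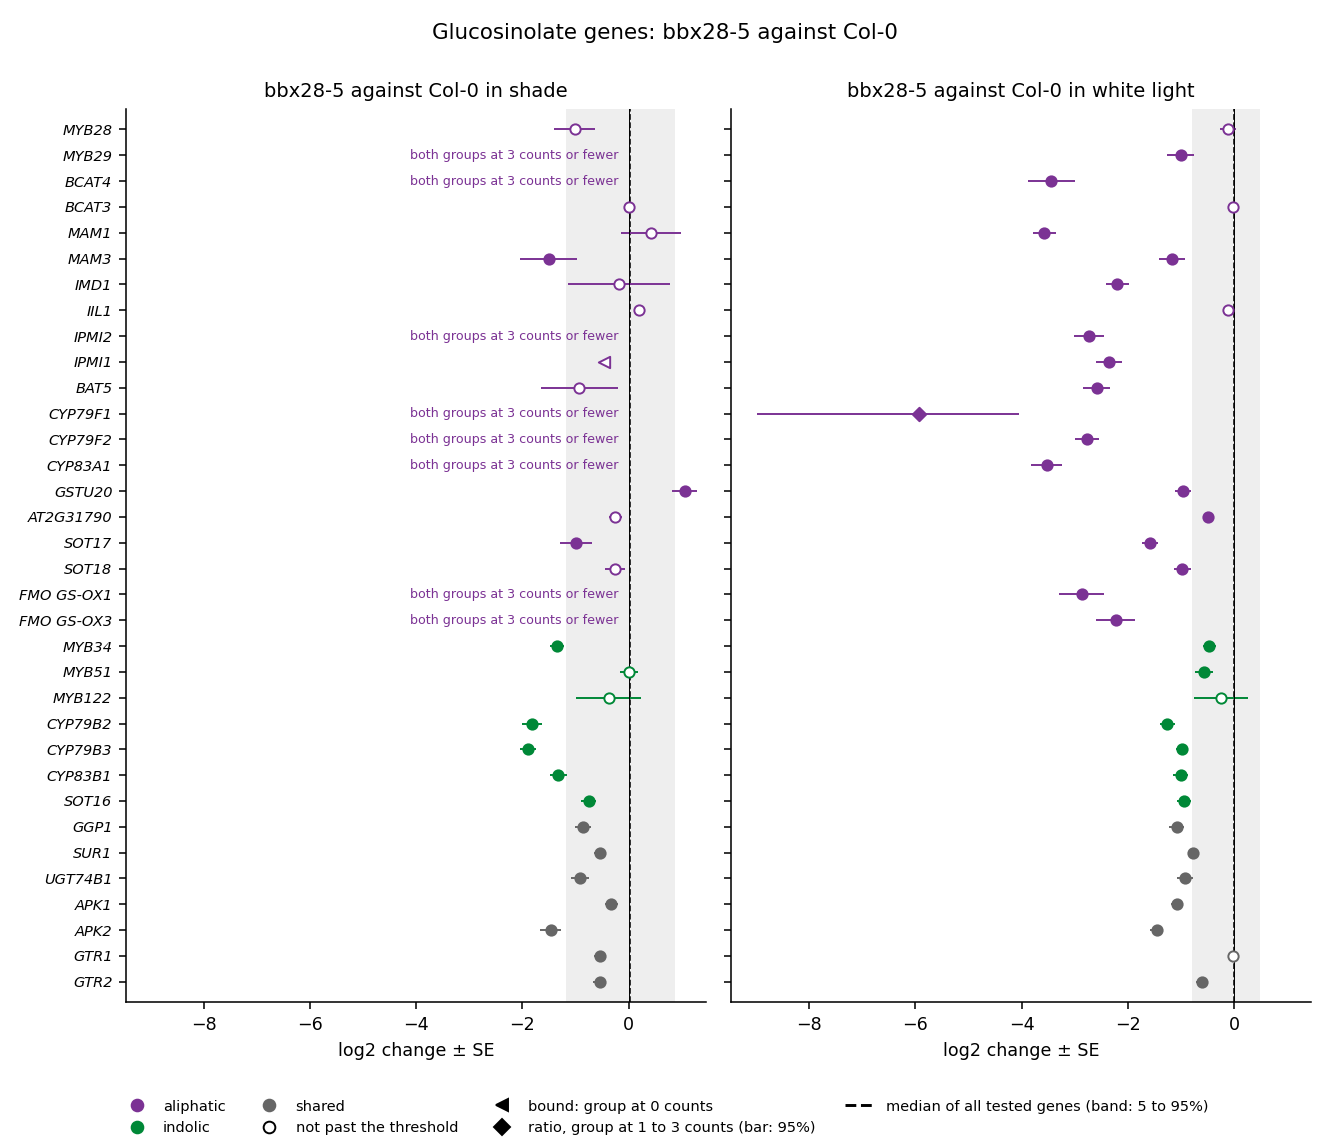
Log2 change of bbx28-5 against Col-0 (x axis) for the 34 tested members in shade (left) and white light (right), with symbols as for the shade changes; filled points passed the test. BCAT4, CYP79F1, FMO GS-OX1 and MYB122 entered the test only through Col-0 in white light. In white light MAM1 lies at -3.57. The regulators lie there at -1.01 for MYB29, -0.57 for MYB51, -0.47 for MYB34, -0.25 for MYB122 and -0.12 for MYB28. In shade the indolic enzymes CYP79B2 and CYP79B3 lie at -1.82 and -1.9.

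In shade, the difference between the genotypes was found mostly in the indolic and shared members, and many aliphatic members were at or near 0 counts in both. Of the 34 tested members 14 were lower in bbx28-5 and 1 higher, where 35.4% of all tested genes were called, 14.5% lower and 20.9% higher, in edgeR's quasi-likelihood test. These were 5 of 7 indolic, 7 of 7 shared and 2 of 20 aliphatic members lower, with GSTU20 higher. The shaded libraries compared here also enter the shade contrasts. The median log2 change was -1.33 over the indolic, -0.55 over the shared and -0.88 over the aliphatic members, against 0.03 over all tested genes. The aliphatic median was -0.67 with IPMI1 at its bound, and -0.25 over the 11 members with more than 3 counts in each shaded group, a choice made after seeing the data. Libraries of shaded bbx28-5 had scaling factors of 0.79 to 0.867, against 1.01 to 1.08 in the other groups. Scaling by total counts shifts the median of all genes here by -0.30, so that 18.7% of the calls are higher, against 59.1% with the scaling used.

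CYP79B3 was lower in shaded bbx28-5 by a log2 change of -1.9 ± 0.15 (SE, edgeR adjusted p = 1.22e-06) and CYP79B2 by -1.82 ± 0.19 (edgeR adjusted p = 1.17e-05). MYB34 had -1.35 ± 0.13 (edgeR adjusted p = 6.96e-06) and CYP83B1 -1.33 ± 0.16 (edgeR adjusted p = 3.33e-05). All 3 libraries of bbx28-5 were below all of Col-0 for each of these, and for SOT16 (-0.75 ± 0.14, edgeR adjusted p = 0.000901). Groups were apart in that direction in 15 of the 34 tested members and in 19.0% of all tested genes. MYB51 had 0 ± 0.17 and MYB122 -0.38 ± 0.61, and neither passed. Among the shared members, APK2 had -1.47 ± 0.20, UGT74B1 -0.91 ± 0.17, GGP1 -0.87 ± 0.15, GTR2 -0.55 ± 0.12, SUR1 -0.54 ± 0.12, GTR1 -0.54 ± 0.12 and APK1 -0.33 ± 0.12 (SE). The call of APK1 was lost without replicate 1 or 3 of shaded bbx28-5, replicate 1 or 3 of shaded Col-0 or replicate 1 of Col-0 in white light (highest edgeR adjusted p = 0.183).

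On the aliphatic side, GSTU20 was higher in shaded bbx28-5 by 1.05 ± 0.23 on the log2 scale (SE, edgeR adjusted p = 0.0032). MAM3 was lower by -1.51 ± 0.54 (edgeR adjusted p = 0.0417) and SOT17 by -1 ± 0.30 (edgeR adjusted p = 0.0189). MAM3, whose groups overlapped, lost its call without replicate 1 of shaded bbx28-5, of bbx28-5 in white light or of Col-0 in white light, or replicate 1 or 2 of shaded Col-0 (highest edgeR adjusted p = 0.156). SOT17 lost it without replicate 2 of shaded bbx28-5 or replicate 1 of shaded Col-0 (highest edgeR adjusted p = 0.0653). MYB28 had -1.02 ± 0.38 (edgeR adjusted p = 0.0515), from 21 counts in shaded bbx28-5 and 62 in shaded Col-0. It passed under total-count scaling (adjusted p = 0.0131), in DESeq2 (0.03) and without the low-count filter (0.0424). The same held without replicate 1 of shaded bbx28-5 (edgeR adjusted p = 0.032), replicate 1 of shaded Col-0 (0.0162) or replicate 2 of Col-0 in white light (0.0453). MYB29 and CYP79F1 were at 0 in both shaded groups, and BCAT4, IPMI2, CYP79F2, CYP83A1, FMO GS-OX1 and FMO GS-OX3 had at most 3 counts in each. A difference between the genotypes was not detectable for these at this depth. IPMI1 had 0 counts in bbx28-5 and 6 in Col-0, at least 1.38-fold lower, and did not pass. MAM1 (0.42 ± 0.57), BAT5 (-0.93 ± 0.72), IMD1 (-0.19 ± 0.96), BCAT3 (0 ± 0.087), IIL1 (0.20 ± 0.11), AT2G31790 (-0.25 ± 0.12) and SOT18 (-0.26 ± 0.19) did not pass either (log2 ± SE). Under total-count scaling AT2G31790 (-0.55, edgeR adjusted p = 0.00326), SOT18 (-0.57, 0.0256) and BCAT3 (-0.30, 0.0128) passed as lower.

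Without replicate 2 of shaded bbx28-5, the library that stood apart, 13 members were lower and 2 higher, against 16.2% and 27.4% of all tested genes. SOT17 then lost its call and IIL1 became higher, by 0.36 ± 0.07 (SE, edgeR adjusted p = 0.00024). The aliphatic median was -0.44 without this library and -0.09 without replicate 2 of shaded Col-0, so it depended on single libraries. Root markers summed to 132 to 136 CPM in shaded bbx28-5 and 170 to 222 CPM in shaded Col-0, with 5 of 10 tested lower in bbx28-5 and NRT2.1 and IRT1 at 0 there. Guard and myrosin cell markers summed to 29.9 to 42.6 CPM in shaded bbx28-5 and 60.9 to 63.9 CPM in shaded Col-0, with 3 of 3 lower. Shoot markers summed to 15500 to 22400 CPM in shaded bbx28-5 and 12600 to 15100 CPM in shaded Col-0, with 2 of 7 higher. Seed markers summed to 138 to 794 CPM in shaded bbx28-5 and 41.0 to 106 CPM in shaded Col-0, with 4 of 5 higher. The part of these markers in the result was not tested. BBX28 itself was at 144 to 210 CPM in shaded bbx28-5 and 104 to 115 CPM in shaded Col-0, and at 99.8 to 108 CPM in bbx28-5 and 64.1 to 74.2 CPM in Col-0 in white light. With the lesion not given, its level does not check the labels.

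The interaction, the shade change in bbx28-5 minus that in Col-0, passed for 6 of the 34 tested members. In edgeR's quasi-likelihood test 3 were higher and 3 lower, where 10.3% of all tested genes were called, 6.52% higher and 3.79% lower. Under total-count scaling the median of all genes shifts by -0.29 and 15.4% of the calls are higher, against 63.2% with the scaling used. It rests on the same libraries as the shade contrasts. For the 3 higher ones the size of the log2 change with shade was smaller in bbx28-5, and for the 3 lower ones it was larger. MAM1 changed by -2.17 ± 0.40 in bbx28-5 and -6.15 ± 0.28 in Col-0, a difference of 3.98 ± 0.67 (SE, edgeR adjusted p = 0.00287). Its shaded levels, at most 0.577 CPM, were close to the floor in both genotypes. For GSTU20 the changes were -2.97 ± 0.19 in bbx28-5 and -4.99 ± 0.20 in Col-0, a difference of 2.02 ± 0.28 (SE, edgeR adjusted p = 0.000868). APK1 had -0.66 ± 0.11 in bbx28-5 and -1.40 ± 0.11 in Col-0, a difference of 0.74 ± 0.16 (SE, edgeR adjusted p = 0.0106), which did not pass under total-count scaling (0.44, adjusted p = 0.0611). All 3 had a lower level in bbx28-5 than in Col-0 in white light.

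On the other side, CYP79B3 changed by -2.81 ± 0.14 in bbx28-5 and -1.89 ± 0.13 in Col-0, a difference of -0.92 ± 0.19 (SE, edgeR adjusted p = 0.00858). MYB34 had -2.19 ± 0.13 in bbx28-5 and -1.31 ± 0.12 in Col-0, a difference of -0.88 ± 0.18 (SE, edgeR adjusted p = 0.00749). For GTR1 the changes were -2.31 ± 0.11 in bbx28-5 and -1.78 ± 0.11 in Col-0, a difference of -0.52 ± 0.16 (SE, edgeR adjusted p = 0.0486). Leaving out 1 library lost the GTR1 call in each case except replicates 1 and 2 of shaded bbx28-5 (highest edgeR adjusted p = 0.123). CYP79B2 (-0.56 ± 0.24), CYP83B1 (-0.32 ± 0.21) and MYB28 (-0.90 ± 0.41, edgeR adjusted p = 0.18) did not pass. Aliphatic members at 0 in a shaded group gave no usable interaction. Without replicate 2 of shaded bbx28-5, 6 members were higher and 4 lower, against 15.6% and 7.20% of all tested genes. The 4 added were IIL1 (0.47 ± 0.092), MYB51 (0.78 ± 0.20) and SOT16 (0.39 ± 0.11) as higher and CYP83B1 (-0.55 ± 0.14) as lower.

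**Figure D4:**
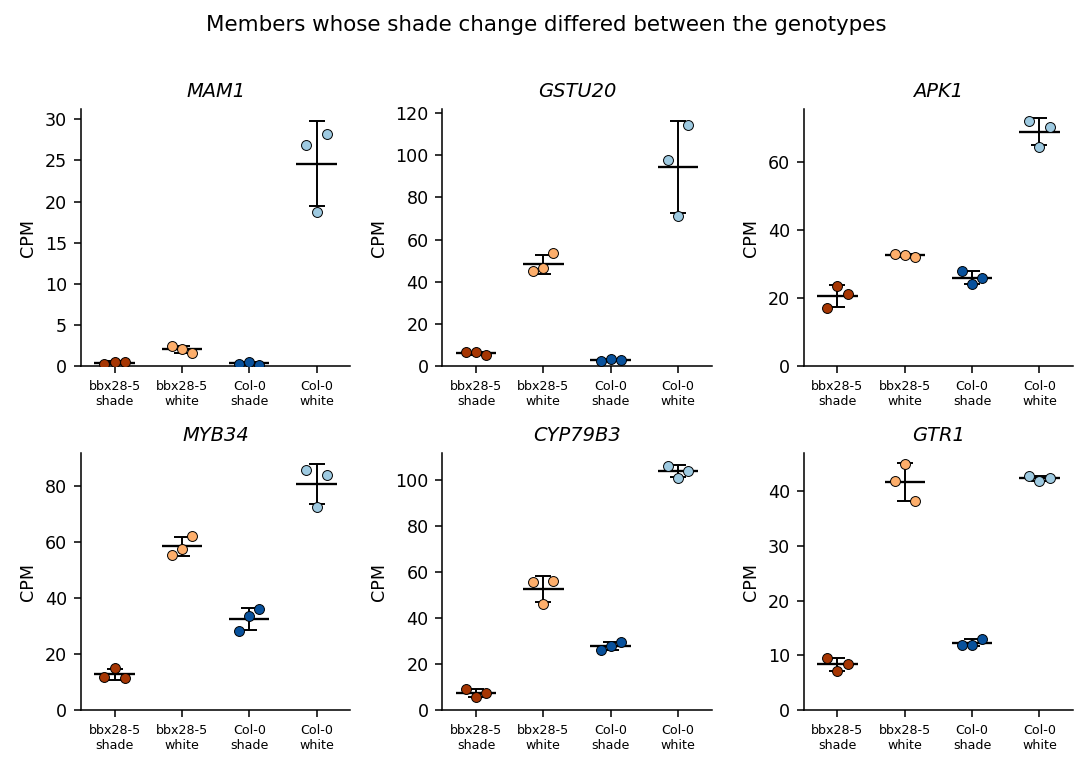
Levels in CPM (y axis) of the 6 members that passed the interaction test, in bbx28-5 and Col-0 under simulated shade and white light; points are libraries, lines the mean and bars the SD of 3. MAM1, GSTU20 and APK1 were lower in bbx28-5 than in Col-0 in white light, and MYB34, CYP79B3 and GTR1 were lower in bbx28-5 in shade.

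Other genes of the pathway were taken from lists of 60 further regulators, modifying, transport and breakdown genes, of which 53 were tested. In white light 1 was higher and 15 lower in bbx28-5, with a median log2 change of -0.27, where 3.80% of all tested genes were higher and 6.08% lower. The higher one was TGG2, a myrosinase, with 66.7, 73.7 and 55.1 CPM in bbx28-5 and 38.4, 39.6 and 37.8 CPM in Col-0 (log2 change 0.76, edgeR adjusted p = 0.0019). Among the lower ones were SDI1, a repressor of aliphatic genes under sulphur deficiency, at -1.54 ± 0.24, BGLU28, a beta-glucosidase, at -1.79 ± 0.41, and PAD3, the last enzyme of camalexin synthesis, at -1.49 ± 0.35 (SE). BGLU28 and PAD3 passed the filter only through Col-0 in white light, where they are high, and had under 3 CPM in every library. Both lost their calls without replicate 2 of bbx28-5 or replicate 3 of Col-0 in white light, BGLU28 also without replicate 3 and PAD3 without replicate 1 of bbx28-5 in white light (highest edgeR adjusted p = 0.0666 for BGLU28 and 0.0889 for PAD3). MYC2, a bHLH partner of the MYB factors, was at 0 in all libraries, and its exons lie opposite AT1G32630 over 98.5% of their length. MYC3 and MYC4 did not pass in white light.

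In shade 8 of the 53 were higher and 22 lower in bbx28-5, with a median of -0.35, where 20.9% of all tested genes were higher and 14.5% lower. NSP4, a nitrile-specifier protein of glucosinolate breakdown, had 2.83, 4.50 and 4.15 CPM in shaded bbx28-5 and 17.2, 15.2 and 17.8 CPM in shaded Col-0 (log2 change -2.13 ± 0.15, edgeR adjusted p = 7.07e-07). CYP81F3, a hydroxylase of the indole ring, had -1.94 ± 0.23, and IGMT5, a methyltransferase of indolic glucosinolates, had -1.68 ± 0.17 (SE). The interaction passed for 11 of the 53, 5 higher and 6 lower, where 6.52% of all tested genes were higher and 3.79% lower, led by NSP4 (-1.34 ± 0.20), BGLU30 (1.15 ± 0.16) and CYP81F3 (-1.14 ± 0.30). The CYP81F3 call was lost in 5 of the 12 fits with 1 library left out (highest edgeR adjusted p = 0.0685). Shade against white light gave 9 higher and 34 lower in bbx28-5, with a median of -0.99, where 34.4% of all tested genes were higher and 33.1% lower. It gave 7 higher and 36 lower in Col-0, with a median of -0.75, where 29.0% of all tested genes were higher and 30.4% lower. The largest called log2 changes with shade in bbx28-5 were -6.60 for FMO GS-OX2, -3.32 for PAD3 and -2.95 for IGMT2. In Col-0 they were -6.05 for PAD3, -5.84 for FMO GS-OX2 and -4.71 for BGLU28. PAD3 and BGLU28 entered only through Col-0 in white light, so the filter favoured a difference in Col-0. FMO GS-OX2 was at 0.109, 0 and 0 CPM in shaded bbx28-5 and 4.02, 4.01 and 4.99 CPM in bbx28-5 in white light. BGLU30, a beta-glucosidase induced in darkness, was higher in shade in both genotypes, at 398, 392 and 410 CPM in shaded bbx28-5 and 86.6, 84.8 and 84.2 CPM in bbx28-5 in white light.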

How the data were processed

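RNA from whole seedlings was sequenced from a stranded mRNA kit, per the labels' protocols, in 12 libraries. The authors deposited a table of raw read counts per gene, and a second one of fewer genes in log2 CPM with TMM scaling. Per the submitters' processing notes, FastQC, HISAT, SAMtools, HTSeq and edgeR were used on TAIR10, with versions and counting settings not stated. The log2 table was used to check the scaling and to vary which genes entered. From the counts, genes were filtered with filterByExpr (19711 of 32833 kept), scaled by TMM and fitted over all 12 libraries with the quasi-likelihood test of edgeR 4.0.16 in R 4.3.3, with Benjamini-Hochberg adjustment and a threshold of 0.05. The SE is derived from the test statistic. The test was checked on counts simulated from its own fit, with few genes changed and as many up as down. With so few changes, that check could not cover the scaling. DESeq2 1.42.0, other scalings and filters, 2-group fits, a replicate block and leaving out each library were alternatives. Depth was 10.61 to 14.3 M counts per library.

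The members, the lists of further genes and the markers were chosen with earlier results of these data known. All 36 members are named. Further pathway genes are given as counts, with values for the 3 largest called changes per contrast. Shade levels of BGLU30, which is not among those 3 for shade, are given as well. TGG2, MYC2, MYC3 and MYC4 were named after their values were seen. Names, positions and upstream bases came from RefSeq's TAIR10.1, since the files hold identifiers only.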

Additional observations from a re-analysis of the deposited data

Results flagged for a closer look

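The shade change differed between the genotypes for 6 of the 34 tested members by the interaction term of edgeR's quasi-likelihood test (bbx28-5 minus Col-0, log2 ± SE). Of all tested genes, 10.3% were called by this term, 6.52% higher and 3.79% lower. The difference was 3.98 ± 0.67 for MAM1, 2.02 ± 0.28 for GSTU20 and 0.74 ± 0.16 for APK1, whose shade change was smaller in bbx28-5. It was -0.92 ± 0.19 for CYP79B3, -0.88 ± 0.18 for MYB34 and -0.52 ± 0.16 for GTR1, whose shade change was larger in bbx28-5. The GTR1 call was lost in 10 of the 12 fits with 1 library left out. That of APK1 was lost under total-count scaling (edgeR adjusted p = 0.0611), and MAM1 was close to the floor in shade in both genotypes.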

How the results depend on the processing

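Under every setting tried, 12 of 15 members called for genotype in shade kept their call, 25 of 29 for genotype in white light and 4 of 6 for the interaction. The causes of the changes below were not tested. Low counts limit the aliphatic values in shade.

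The members left out as of wider role were BCAT3, IIL1 and GSTU20 of the aliphatic branch and SOT16 of the indolic one. The aliphatic median for shade in bbx28-5 (-3.94) was -4.25 under total counts, -3.76 in DESeq2, -3.45 with no filter, -3.40 with only the 2 groups and -5 without members of wider role. That in Col-0 (-5.39) was -4.97 with no filter and -6.15 without wider-role members. The indolic medians for shade were -2.54 under total counts and -2.5 without wider-role members in bbx28-5, and -1.60 without them in Col-0. For genotype in shade the aliphatic median (-0.88) was -1.11 under total counts, -0.40 in DESeq2 and -0.33 with only the 2 groups, and the indolic one (-1.33) was -1.65 under total counts. For genotype in white light the indolic median (-0.94) was -0.78 without wider-role members. Interaction medians were -0.62 for indolic members under total counts, against -0.32, and 1.41 for aliphatic members in DESeq2, against 0.85. The aliphatic interaction medians include members at 0 in a shaded group, whose values are not usable, and over the 11 members with more than 3 counts in each shaded group the median was 0.58.

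With 1 library left out in turn, the aliphatic median ranged from -4.34 to -3.61 for shade in bbx28-5, from -0.89 to -0.09 for genotype in shade and from 0.59 to 0.94 for the interaction. The indolic interaction median ranged from -0.80 to -0.20, and the members called for the interaction from 5 to 10, with 10 without replicate 2 of shaded bbx28-5.

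Signs turned for members that had not passed. For genotype in shade, BCAT3 was -0.30 under total counts, where it passed (edgeR adjusted p = 0.0128), -0.03 with no filter, -0.07 with only the 2 groups and -0.05 to 0.06 with 1 library left out. IIL1 was -0.10 under total counts, and MYB51 was 0.02 with DESeq2's size factors and in DESeq2, and 0.04 with offsets for exon length, a setting added after seeing the data. With 1 library left out, MYB51 ranged from -0.15 to 0.21, IMD1 from -1.13 to 0.49 and MYB122 from -1.08 to 0.24. For genotype in white light, BCAT3 and GTR1 were 0.01 with DESeq2's size factors and in DESeq2, and BCAT3 was 0.03 with length offsets. With 1 library left out there, BCAT3 ranged from -0.07 to 0, GTR1 from -0.09 to 0.03 and MYB122 from -0.59 to 0.09. MYB122 ranged from -0.97 to 0.05 for shade in Col-0.

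Deviations of same-numbered libraries were only weakly correlated (-0.148 to 0.109), so the main fit used no pairing. Weak correlations cannot exclude that libraries of the same number were handled together. With the replicate block, 31 members were called for shade in bbx28-5, 32 for shade in Col-0, 14 for genotype in shade, 27 for genotype in white light and 5 for the interaction. In the same order the main fit called 31, 32, 15, 29 and 6 members, and 67.5%, 59.4%, 35.4%, 9.88% and 10.3% of all tested genes. The share of all genes called under the block is not given here, so its counts only compare the fits. For genotype in shade the block lost MAM3 (edgeR adjusted p = 0.0662) and APK1 (0.061) and gained IPMI1 (0.0461). It lost MYB29 (edgeR adjusted p = 0.0588) and MYB51 (0.0548) in white light and GTR1 (0.0805) for the interaction.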
